A study of Mus musculus with 32 samples.

Results

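The genes that write, copy and remove DNA methylation were followed in mouse embryonic stem (ES) cells of the E14TG2a line through 2 kinds of perturbation. They are the 8 genes Dnmt1, Uhrf1, Dnmt3a, Dnmt3b, Dnmt3l, Tet1, Tet2 and Tet3, and every probe whose annotation names exactly 1 of them was used. On the Affymetrix arrays these were 20 of 45037 probe sets tested, and on the 2-colour arrays 6 of 16657 probes tested, covering 5 of the 8 genes. Uhrf1, Tet2 and Tet3 had no probe on the 2-colour arrays and were not analysed there. The Affymetrix arrays compared cells transfected with the parental pSUPER-puro vector (n = 5 arrays), with a construct for RNA interference (RNAi) against Nanog (n = 5) or with one against Pou5f1, the gene of Oct4 (n = 4). All of these cells, vector controls included, were selected with puromycin at 1 µg/ml for 3 days. On the 2-colour arrays, cells treated with retinoic acid (RA) at 0.1 µM, dimethyl sulfoxide (DMSO) at 1% or hexamethylene bisacetamide (HMBA) at 3 mM for 2, 4 or 6 days were each hybridised against untreated E14 cells, on 2 arrays per treatment and day with the dyes exchanged (18 arrays). RA, DMSO and HMBA are long-used inducers of differentiation in culture. The labels do not say whether arrays of one group came from separate cultures, so p-values measure the spread between arrays, which may be technical.

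DNA methylation in mammals is the addition of a methyl group to cytosine, mostly at CpG dinucleotides. Dnmt3a and Dnmt3b place new methyl groups, and Dnmt3l, which has no catalytic activity of its own, stimulates them. Dnmt1 copies the pattern to the new strand at replication, guided by Uhrf1, which binds half-methylated CpG sites. The Tet enzymes oxidise 5-methylcytosine to 5-hydroxymethylcytosine, a route to its removal. Tet1 and Tet2 are the Tet enzymes known from ES cells, whereas Tet3 is best known from the oocyte and zygote.

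The regions just upstream of the transcription start are shown for the 3 genes that moved most clearly in both data sets or in both knockdowns, Tet1, Tet2 and Dnmt3l. Dnmt3b is shown too, since its direction on day 2 differed between RA and DMSO. All 8 genes matched the RefSeq promoter table, with 15 annotated starts among them. Each run holds the 250 bases before the start in the direction of transcription (RefSeq, GRCm38.p6), with CpG dinucleotides, the substrate of the enzymes themselves, in capitals. For Dnmt3l, which has 3 starts in the table, the most upstream is given. Which of them these cells use was not measured, and the windows of the other starts held 4 and 3 CpG sites.
Tet1, minus strand, chr10:62887325-62887574: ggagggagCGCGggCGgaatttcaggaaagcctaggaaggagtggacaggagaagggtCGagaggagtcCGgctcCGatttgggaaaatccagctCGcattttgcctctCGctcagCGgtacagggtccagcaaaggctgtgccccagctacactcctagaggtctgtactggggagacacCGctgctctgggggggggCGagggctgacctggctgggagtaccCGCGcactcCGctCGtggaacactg
Tet2, minus strand, chr3:133544391-133544640: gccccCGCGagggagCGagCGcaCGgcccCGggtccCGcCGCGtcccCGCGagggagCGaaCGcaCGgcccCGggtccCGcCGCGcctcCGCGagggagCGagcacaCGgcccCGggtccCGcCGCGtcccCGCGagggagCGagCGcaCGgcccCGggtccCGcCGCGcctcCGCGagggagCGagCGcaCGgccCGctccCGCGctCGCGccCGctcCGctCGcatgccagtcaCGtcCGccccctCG
Dnmt3l, plus strand, chr10:78042037-78042286: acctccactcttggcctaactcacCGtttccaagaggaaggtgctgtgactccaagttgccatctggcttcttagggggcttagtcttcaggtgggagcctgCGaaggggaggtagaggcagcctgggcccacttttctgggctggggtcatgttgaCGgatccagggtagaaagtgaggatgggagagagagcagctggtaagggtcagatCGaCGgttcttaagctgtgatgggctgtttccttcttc
Dnmt3b, plus strand, chr2:153649199-153649448: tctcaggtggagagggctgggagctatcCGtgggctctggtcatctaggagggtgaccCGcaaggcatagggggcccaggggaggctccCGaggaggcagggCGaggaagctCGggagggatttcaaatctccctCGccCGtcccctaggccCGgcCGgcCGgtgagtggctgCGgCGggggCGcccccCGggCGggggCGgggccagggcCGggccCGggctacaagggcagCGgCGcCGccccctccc
The windows held 15 CpG dinucleotides in Tet1, 51 in Tet2, 5 in Dnmt3l and 21 in Dnmt3b, against a median of 6 over all 32851 windows of this length. Tet2 thus had more CpG sites than 99.9% of windows, and the Dnmt3l window shown had more than 44.4%. None of the 15 windows of these genes held the octamer ATGCAAAT on either strand, the core letters bound by POU factors such as Oct4, which 1.6% of all windows held. The letters GGGCGG, the GC box, stood on 1 or the other strand in 11 of the 15 windows and in 32.7% of all windows. The 15 windows are not separate, since some genes have several starts and 2 Dnmt3a windows overlap. GGGCGG also holds a CpG itself, so this count is not separate from the CpG counts. Methylation at these sites was not measured here.

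Values on the Affymetrix arrays are log2 levels, so a difference of 1 is a doubling, and a difference was called at a Benjamini-Hochberg adjusted p under 0.05 in limma over all probe sets. The targeted genes bore out the labels. Pou5f1 fell by 2.38 ± 0.10 (SE) under Pou5f1 RNAi, to 19.2% of vector, and Nanog fell by 1.81 ± 0.08 under Nanog RNAi, to 28.6%. Nanog also fell by 1.40 ± 0.09 under Pou5f1 RNAi, so both genes were low there, while the change of Pou5f1 under Nanog RNAi was -0.10 (adjusted p = 0.61). In the vector arrays the ES cell genes Pou5f1, Nanog, Sox2, Zfp42, Klf4 and Esrrb lay between percentiles 94.2 (Esrrb) and 99.1 (Zfp42) of levels. Arrays of one group correlated at 0.990 to 0.997. Marker genes of other cell types moved with the knockdowns. Of 10 trophectoderm markers 10 rose under Pou5f1 RNAi and 9 under Nanog RNAi, and the log2 of their summed level ran from 9.59 to 9.81 on the vector arrays, 11.1 to 11.5 under Nanog RNAi and 14.4 to 14.5 under Pou5f1 RNAi. The same sum over 8 fibroblast markers ran from 7.55 to 7.75, 7.48 to 7.80 and 9.49 to 9.64, and under Pou5f1 RNAi 2 of them rose, Acta2 by 3.34, and 1 fell. Of 8 primitive endoderm markers 5 fell under Pou5f1 RNAi and 3 rose under Nanog RNAi. Of 8 neural markers 4 fell under each, with 2 and 1 rising, and of 7 mesoderm markers 2 rose under each. Under Pou5f1 RNAi those 2 were Eomes (0.42) and Hand1 (2.32), which are also among the 10 trophectoderm markers. The other mesoderm markers were not called there. Over all genes 20.6% rose and 19.5% fell under Pou5f1 RNAi, and 12.1% and 8.77% under Nanog RNAi. Pluripotent markers fell in 8 of 8 cases under Pou5f1 RNAi and in 6 of 8 under Nanog RNAi. The part of these cells in the differences below was not tested, and in bulk RNA fewer cells of a type and less RNA per cell cannot be told apart.

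Among the 20 probe sets, 15 were called between Pou5f1 RNAi and vector, 3 higher and 12 lower, against 31.6% of all probe sets called, 16% higher and 15.6% lower. In 15 of the 20 the arrays of the 2 groups did not overlap, against 27.8% of all probe sets. Counted by gene through its brightest probe set, called the main one here, 1 of 8 rose and 5 fell, and the median difference was -0.97 against -0.04 over all probe sets. Between Nanog RNAi and vector 6 of 20 probe sets were called, 1 higher and 5 lower, with 15.6% of all probe sets called, 8.8% higher and 6.78% lower. Arrays did not overlap in 5 of the 20, against 11.3% of all. By gene these were 3 of 8, namely Dnmt3l, which rose, and Tet1 and Tet2, which fell. The plot of levels by array shows the main probe set of each gene.

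**Figure D1:**
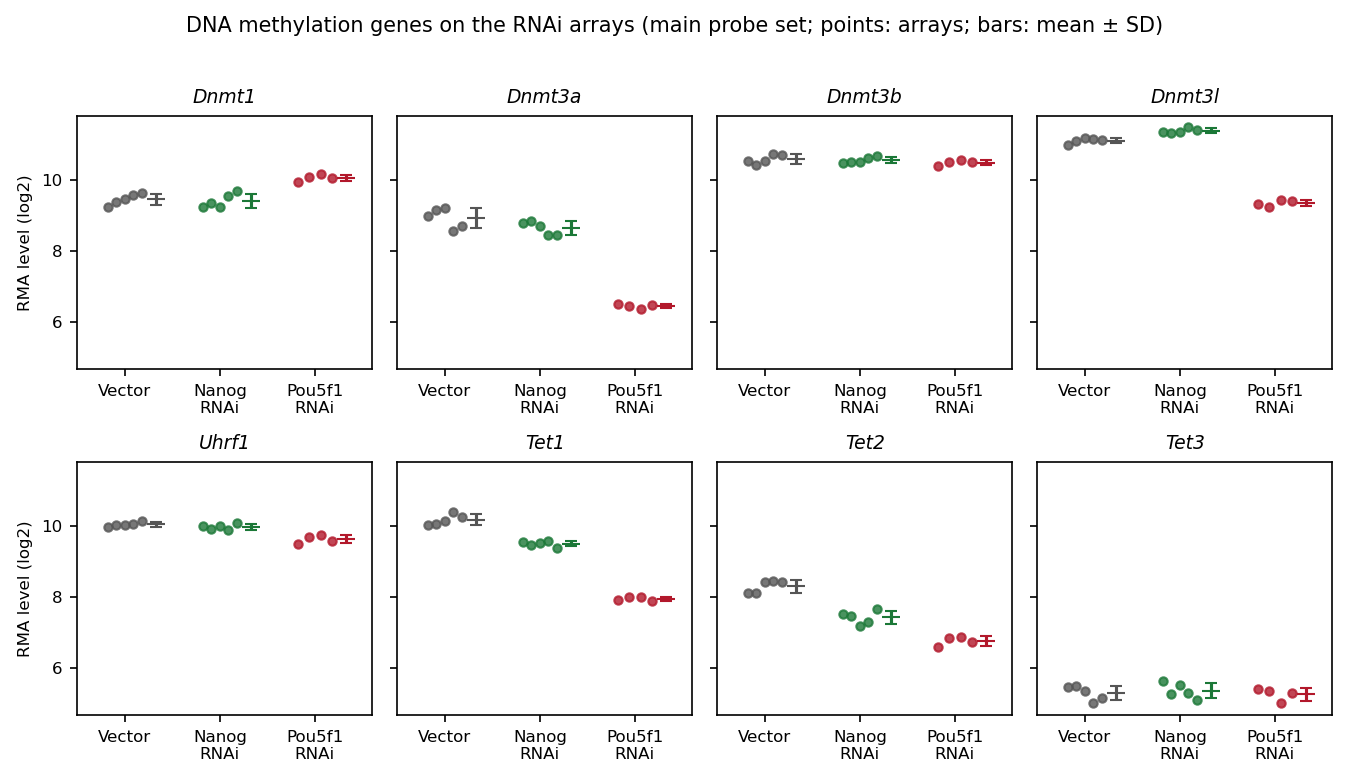
Log2 level of the main probe set of each of the 8 genes (vertical axis) on the vector (n = 5), Nanog RNAi (n = 5) and Pou5f1 RNAi (n = 4) arrays; each point is an array and the bars are mean ± SD. Dnmt3a, Dnmt3l, Uhrf1, Tet1 and Tet2 lie lower in all 4 Pou5f1 RNAi arrays than in any vector array, and Dnmt1 lies higher. Levels of different genes are not comparable with each other.

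The pair that maintains methylation moved in opposite directions under Pou5f1 RNAi. Dnmt1 had levels of 9.25, 9.40, 9.47, 9.58 and 9.64 on the vector arrays and of 9.95, 10.11, 10.17 and 10.06 on the Pou5f1 RNAi arrays. Every Pou5f1 RNAi array lay above every vector array. Dnmt1 rose by 0.60 ± 0.10 (adjusted p = 6.27e-05), and its 2 other probe sets rose by 0.61 and 0.55. The suffix of those 2 marks, in the platform's naming, that some of their probes can match other transcripts. On the Nanog RNAi arrays it ran from 9.25 to 9.71, across the vector range (-0.04, adjusted p = 0.838). Uhrf1, which brings Dnmt1 to replicated DNA, had levels of 9.98, 10.03, 10.05, 10.06 and 10.14 in vector cells and 9.51, 9.71, 9.75 and 9.60 under Pou5f1 RNAi. These ranges did not overlap either, and Uhrf1 fell by 0.41 ± 0.08 to 75.3% of vector (adjusted p = 0.000165), with its second probe set falling by 0.45. Under Nanog RNAi its difference was -0.07 (95% interval -0.21 to 0.08).

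Of the de novo group, Dnmt3a and Dnmt3l fell steeply under Pou5f1 RNAi, while the main probe set of Dnmt3b was not called. Dnmt3l, the stimulating subunit, stood at 10.996, 11.11, 11.19, 11.16 and 11.15 in vector cells, at 11.36, 11.35, 11.36, 11.50 and 11.43 under Nanog RNAi and at 9.33, 9.25, 9.44 and 9.42 under Pou5f1 RNAi. The 3 groups did not overlap, with the Nanog RNAi arrays highest and the Pou5f1 RNAi arrays lowest. Dnmt3l fell by 1.76 ± 0.07 under Pou5f1 RNAi, to 29.5% of vector (adjusted p = 6.65e-14). Under Nanog RNAi it rose by 0.28 ± 0.07, to 121% of vector (adjusted p = 0.00612). The difference between the knockdowns was -2.04 ± 0.07. Dnmt3l has 1 probe set, whose suffix in the platform's naming marks that it can match related transcripts.

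Dnmt3a, a catalytic enzyme, has 5 probe sets that did not move alike. The main one had levels of 8.98, 9.16, 9.24, 8.58 and 8.71 in vector cells, 8.80, 8.86, 8.73, 8.47 and 8.46 under Nanog RNAi and 6.51, 6.47, 6.37 and 6.48 under Pou5f1 RNAi. It fell by 2.48 ± 0.12 under Pou5f1 RNAi, which is 5.57-fold (adjusted p = 1.11e-12), the largest fall among the 20 probe sets. Another pair of probe sets fell as well, with differences of -2.03 ± 0.09 and -1.06 ± 0.11. The remaining pair differed by -0.17 (adjusted p = 0.274) and by 0.08 (adjusted p = 0.699), with arrays of the 2 groups overlapping. All 5 carry the same target accession in the platform's annotation, which does not tell which transcript end or intron each one reads. Under Nanog RNAi only the dimmest of the 5 was called, at -0.42 ± 0.12 (adjusted p = 0.0177), and the main one differed by -0.27 (adjusted p = 0.132, and 0.0313 without the fourth vector array).

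The other catalytic enzyme, Dnmt3b, stood at 10.55, 10.43, 10.55, 10.76 and 10.72 in vector cells and at 10.39, 10.51, 10.58 and 10.52 under Pou5f1 RNAi. The groups overlapped, and the difference was -0.10 (95% interval -0.27 to 0.07, adjusted p = 0.408). Its second probe set fell by 0.38 ± 0.08 (adjusted p = 0.000409), to 76.6% of vector. Under Nanog RNAi the 2 probe sets differed by -0.03 and -0.04, neither of them called.

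Tet1 and Tet2 fell under both knockdowns, further under Pou5f1 RNAi. Tet1 stood at 10.04, 10.05, 10.15, 10.41 and 10.26 in vector cells, at 9.55, 9.48, 9.54, 9.59 and 9.39 under Nanog RNAi and at 7.91, 8.01, 8.01 and 7.91 under Pou5f1 RNAi. The 3 groups formed separate steps, with vector highest and Pou5f1 RNAi lowest. It fell under Pou5f1 RNAi to 21.4% of vector (-2.22 ± 0.08, adjusted p = 1.44e-14) and under Nanog RNAi to 62.8% (-0.67 ± 0.08, adjusted p = 2.54e-06). The test between the knockdowns gave a further difference of -1.55 ± 0.08 (adjusted p = 4.9e-12). Of its 3 other probe sets, 2 fell (-2.11 and -2.03) under Pou5f1 RNAi, the first with the same suffix as the Dnmt3l probe set. The same 2 changed by -0.40 (adjusted p = 0.0684) and -0.87 (adjusted p = 0.000136) under Nanog RNAi. The last lay at 3.50 to 4.10 on the vector arrays, the only one of the 20 below the median level of the array, and was not called in any comparison.

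Tet2 stood at 8.13, 8.11, 8.42, 8.45 and 8.43 in vector cells, at 7.53, 7.47, 7.18, 7.32 and 7.67 under Nanog RNAi and at 6.60, 6.86, 6.88 and 6.74 under Pou5f1 RNAi. Here too no 2 groups overlapped. Tet2 fell under Pou5f1 RNAi to 34.4% of vector (-1.54 ± 0.10, adjusted p = 1.97e-10) and under Nanog RNAi to 54.5% (-0.88 ± 0.10, adjusted p = 1.85e-06). Its second probe set fell too (-1.79 and -1.13). Between the knockdowns Tet2 differed by -0.66 ± 0.10 (adjusted p = 3.45e-05). Tet3, the enzyme of the early embryo, ran from 5.04 to 5.51 in vector cells, 5.10 to 5.64 under Nanog RNAi and 5.01 to 5.43 under Pou5f1 RNAi. Its differences from vector of 0.05 (95% interval -0.18 to 0.29) and -0.04 (-0.29 to 0.21) were not called, so a change larger than these bounds is outside the intervals while a smaller one is not.

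**Figure D2:**
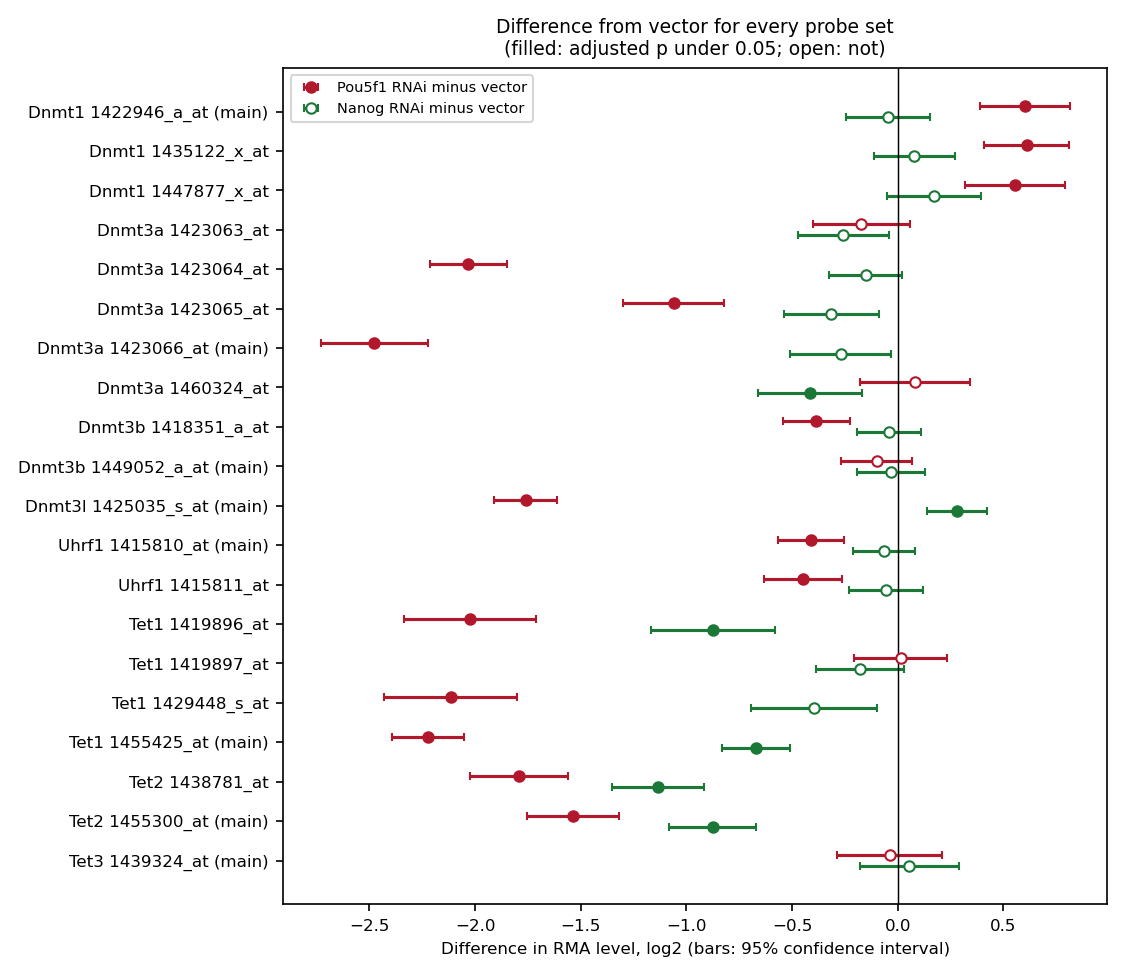
Difference from vector in log2 level (horizontal axis) for each of the 20 probe sets under Pou5f1 RNAi (red) and Nanog RNAi (green), with 95% confidence intervals; filled points have an adjusted p under 0.05. The 5 Dnmt3a probe sets spread from -2.48 to 0.08 under Pou5f1 RNAi, whereas the 3 Dnmt1 probe sets lie between 0.55 and 0.61.

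Set directly against each other, Pou5f1 RNAi and Nanog RNAi differed in 16 of the 20 probe sets, 4 higher and 12 lower under Pou5f1 RNAi, with 29.5% of all probe sets called, 15% higher and 14.5% lower. In 16 of the 20 the arrays did not overlap, against 27.9% of all probe sets. The groups of this comparison share arrays with those above. Genes were ranked by the Pearson r, as a description, of their closest probe set to a member's main probe set over the 14 arrays. The closest were Mcl1 (0.996), Zfp42 (0.994) and Dpy30 (0.994) for Tet1. For Dnmt3l they were Pim2 (0.997), Tcf15 (0.994) and Hmces (0.994), for Dnmt3a Otx2 (0.996), Meg3 (0.996) and Csrp2 (0.992), and for Tet2 Ly6g6e (0.987), Mcf2 (0.986) and Eras (0.985). For Dnmt1 the closest was Coro1b (0.985), for Uhrf1 Zfp184 (0.973), for Tet3 Acvr2b (0.914) and for Dnmt3b Tomm22 (0.907). The points fall into 3 groups of arrays, so these values mostly reflect the steps between groups.

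Other genes of the methylation system were read from 6 lists. Over all 18193 genes 20.6% rose and 19.5% fell under Pou5f1 RNAi, with a median of -0.04. Of 17 partners and regulators 2 rose and 9 fell, with a median of -0.51. The largest were Morc1, a germ line repressor of transposons (-3.20), Dppa3, which protects DNA from demethylation in the zygote (-2.01), Prdm14, which represses the de novo enzymes in naive cells (-1.44), and Hells, the remodelling helicase needed for methylation of repeats (-1.38). Of 25 DNA replication genes none rose and 20 fell, with a median of -0.54, led by Pola1 (-1.30), Gins1 (-1.07) and Lig1 (-1.01). Dnmt1, which acts at replication, rose in the same arrays. Of 10 genes of S-adenosylmethionine supply, the methyl donor, 1 rose and 5 fell, among them Shmt1 (-1.12), Shmt2 (-0.98) and Mat2b (-0.86), while Ahcyl1 rose (0.66).

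The methyl-CpG readers and the base excision genes split. Of 7 readers 3 rose and 2 fell under Pou5f1 RNAi, and Mbd2 rose most (2.09), followed by Mbd1 (0.84), while Mbd4 (-0.63) and Mbd3 (-0.30) fell. Of 11 base excision and deamination genes 3 rose and 6 fell, with Gadd45g (2.59) and Gadd45b (2.22), stress-induced proteins linked to active demethylation, rising and the uracil glycosylase Ung (-1.35) and Parp1 (-1.08) falling. Gadd45a, of the same family as the first pair, fell as well (-1.05, adjusted p = 4.14e-09). Of 15 germ line genes that promoter methylation is known to keep silent in somatic cells 8 rose and 3 fell, with Taf7l (1.74), Slc25a31 (1.29) and Tex19.1 (1.05) rising and Hormad1 (-1.55) falling.

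Under Nanog RNAi 12.1% of all genes rose and 8.77% fell. Of the 17 partners 1 rose and 2 fell: Dppa3 rose by 0.91 where it had fallen under Pou5f1 RNAi, and Prdm14 (-1.01) and Ogt (-0.26) fell. Of the 25 replication genes 5 fell, led by Pola1 (-0.69). The readers Mbd2 (0.86) and Mbd1 (0.46) rose and Zbtb38 (-0.32) fell. Gadd45g (1.58), Gadd45b (1.31) and Gadd45a (0.58) rose and Parp1 (-0.30) fell among the 11 base excision genes. Of the 15 germ line genes 7 rose and 2 fell, among them Stk31 (1.32), Ddx4 (1.03) and Slc25a31 (0.87) higher and Sycp3 (-1.02) lower. Of the 10 S-adenosylmethionine genes 1 rose and 3 fell, by at most 0.37.

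On the 2-colour arrays each value is the log ratio of treated over untreated cells. No label or header states the base of the logarithm; it was treated as 2, so a base of 10 would make each fold larger. The lowest array, DMSO on day 4 in its second orientation, held 11257 values and the fullest 20019, and all members had a value on all 18 arrays. Replicate 1 and 2 of each day differ in dye orientation, and a fit with orientation as a term stands beside the calls. Both fits use the spread between the 2 arrays of a day. Averaged over the 3 days (n = 6 arrays), 3 of the 5 genes were called with RA against 25.1% of all probes, 2 with DMSO against 17% and 2 with HMBA against 24.8%, and every called gene was lower, as were 10.5%, 7.62% and 11.4% of all probes. With orientation as a term these became 3 genes, all lower, with RA, 4 with DMSO, of which Dnmt3a and Dnmt3b were higher, and 4, all lower, with HMBA, against 49.3%, 41.1% and 47.8% of probes. All treatments share the untreated cells as reference.

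Tet1 was low from the first day measured. With RA its ratios were -2.57 and -3.02 on day 2, -2.54 and -2.30 on day 4 and -2.09 and -1.90 on day 6. With DMSO they were -2.32 and -2.24, then -2.67 and -2.71, then -2.53 and -2.62. With HMBA they were -3.72 and -3.62, then -3.28 and -3.13, then -2.83 and -2.87. All 18 arrays lay at -1.90 or lower, and the HMBA arrays were the lowest at each day. Over the 3 days Tet1 fell 5.29-fold with RA (-2.40 ± 0.08, adjusted p = 1.85e-09), 5.71-fold with DMSO (-2.51 ± 0.08, adjusted p = 3.09e-09) and 9.47-fold with HMBA (-3.24 ± 0.08, adjusted p = 2.34e-10). The mean with HMBA was the lowest: RA minus HMBA was 0.84 ± 0.12 (adjusted p = 0.0012) and DMSO minus HMBA 0.73 ± 0.12 (adjusted p = 0.00764), while RA minus DMSO was 0.11 (95% interval -0.14 to 0.37). From day 2 to day 6 the ratio moved by 0.80 with RA and 0.82 with HMBA, not called (adjusted p = 0.101 and 0.0788) except with orientation as a term (0.00763 and 0.00628), and for RA also without the first array of day 2 (0.0376). The call of DMSO minus HMBA was lost when the arrays were scaled to equal spread (adjusted p = 0.104) and when the spread between days counted as error (0.135).

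Tet1 can be set beside the pluripotency factors on the same arrays. On day 2 with DMSO the mean ratio of Tet1 was -2.28 ± 0.14 and that of Nanog -1.83 ± 0.28, both called, when the ratios of Pou5f1 were 0.15 and 0.33 (adjusted p = 1). On day 2 with HMBA Tet1 was at -3.67 ± 0.14 and Nanog at -1.17 ± 0.28, both called, with Pou5f1 at 0.10 and -0.38 (adjusted p = 0.891). On day 6 with RA Pou5f1 (-2.44 ± 0.20) and Tet1 (-1.99 ± 0.14) were low and Nanog had ratios of -0.59 and 0.25 (adjusted p = 0.766). Whether these genes differ from one another in their ratios was not tested.

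**Figure D3:**
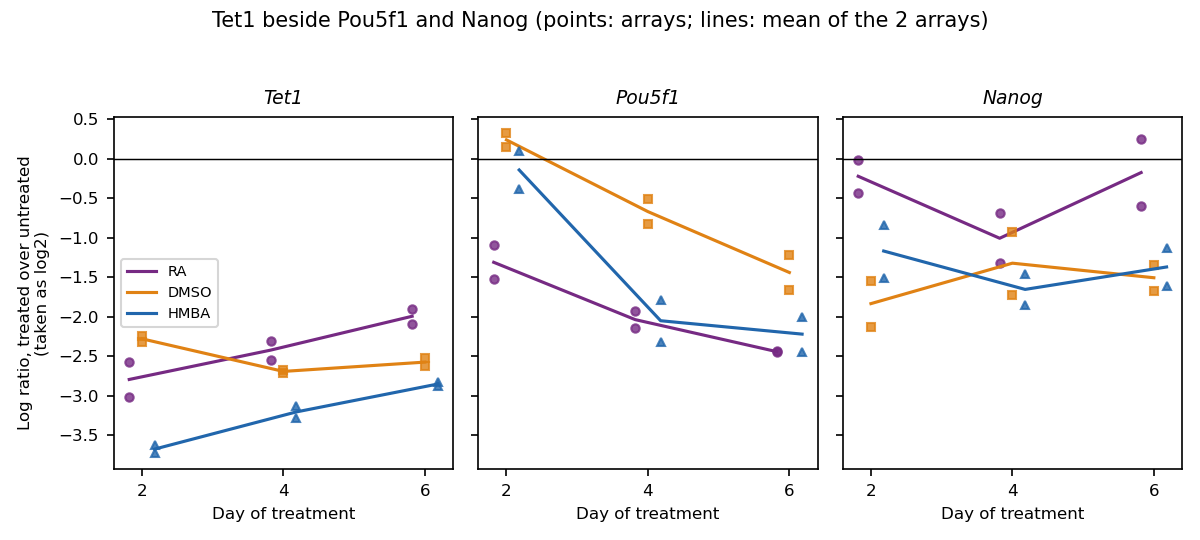
Log ratio of treated over untreated cells, taken as log2 (vertical axis), on days 2, 4 and 6 for Tet1, Pou5f1 and Nanog with RA, DMSO or HMBA; points are the 2 arrays of a day and lines join their means. Tet1 lies between -1.90 and -3.72 on every array, whereas Pou5f1 lies near 0 on day 2 with DMSO and HMBA.

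Dnmt3l was low by day 6 in all 3 treatments, furthest with DMSO. With DMSO its ratios were -1.72 and -0.89 on day 2, -3.55 and -2.66 on day 4 and -3.90 and -3.82 on day 6. With HMBA they were -0.14 and 0.21, then -1.88 and -1.45, then -2.68 and -2.21. With RA they were -0.65 and 0.26, then -1.13 and -0.60, then -2.18 and -1.52. On day 2 the RA and HMBA arrays straddled 0 and only the DMSO arrays were both below it. From day 2 to day 6 Dnmt3l fell with DMSO (-2.55 ± 0.41, adjusted p = 0.0115) and with HMBA (-2.48 ± 0.41, adjusted p = 0.00937), where 0.955% and 1.48% of all probes were called. With RA the change of -1.65 ± 0.41 was not called (adjusted p = 0.0966, and 3.16e-05 with orientation as a term), with 1.09% of probes called. The term also called the RA ratio of day 4 (-0.86, adjusted p = 0.0952 without it and 0.000142 with it) and RA minus HMBA over the days (0.39, 0.652 and 0.0278). Leaving out 1 array ended the call of the HMBA change for each of its 4 arrays (adjusted p 0.0532 to 0.115) and that of the DMSO change for 3 of 4, the second of day 2 and both of day 6 (0.109 to 0.128). Scaling the arrays to equal spread also ended both (0.0634 and 0.0825).

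Over the 3 days Dnmt3l fell with RA (-0.97 ± 0.17, adjusted p = 0.000995), DMSO (-2.76 ± 0.17, adjusted p = 3.88e-07) and HMBA (-1.36 ± 0.17, adjusted p = 7.32e-05). The mean with DMSO was the lowest: RA minus DMSO was 1.79 ± 0.24 (adjusted p = 0.000539) and DMSO minus HMBA -1.40 ± 0.24 (adjusted p = 0.0111). When the spread between days counted as error, the call in RA was lost (adjusted p = 0.0807), as were the difference of RA from DMSO (0.0759) and of DMSO from HMBA (0.526). The last was also lost with arrays scaled to equal spread (0.0535). The day 6 ratio with DMSO corresponds to a 14.5-fold fall, with HMBA 5.44-fold and with RA 3.59-fold. Each of these was called (adjusted p = 6.85e-06, 0.000154 and 0.00107), though the RA value missed the threshold without its first array (0.0518). The fall on day 2 of DMSO (adjusted p = 0.0404) was lost without either array of that day (0.823 and 0.134), without either array of day 6 (0.0657 and 0.0684) and with scaled arrays (0.0599). The fall on day 4 of HMBA (adjusted p = 0.00224) was lost without the first array of that day (0.0783).

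Dnmt3b had ratios of opposite sign on day 2 of RA and of DMSO. With RA its ratios were -0.86 and -1.56 on day 2, -0.82 and -1.70 on day 4 and -1.19 and -2.25 on day 6. With DMSO they were 2.29 and 1.72, then 0.68 and -0.28, then -0.18 and -0.95. With HMBA they were 0.73 and 0.09, then -0.11 and -0.84, then -1.20 and -1.78. The RA arrays were all below 0, and the DMSO arrays of day 2 stood above every other array. Dnmt3b rose by 2.01 ± 0.35 on day 2 of DMSO (4.02-fold, adjusted p = 0.0102), where 1.97% of probes were called and 3 of the 5 genes, Dnmt3l and Tet1 being the others. From there to day 6 it fell again (-2.57 ± 0.50, adjusted p = 0.0302), and leaving out any 1 of the 4 arrays of those days ended that call (adjusted p 0.0976 to 0.345). Leaving out either day 2 array also ended the call on day 2 (adjusted p = 0.33 and 0.113), while with orientation as a term both changes were called (4.59e-09 and 5.15e-08).

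Over the 3 days of RA Dnmt3b fell by 1.40 ± 0.20 (adjusted p = 0.000256), and RA minus DMSO was -1.95 ± 0.29 (adjusted p = 0.00119). The latter comparison called 6.19% of all probes. By day with RA the ratio was not called on day 2 (-1.21, adjusted p = 0.0667, and 9.94e-07 with orientation as a term) and was called on day 4 (-1.26, adjusted p = 0.0425) and day 6 (-1.72, adjusted p = 0.00581). Without either array of day 4 (0.0893 and 0.522), or without the second of day 6 (0.2), that day's call was lost. Dnmt3b was also low on day 6 of HMBA (-1.49 ± 0.35, adjusted p = 0.0144), not called without either array of that day (0.0799 and 0.261). The means with DMSO (0.55, adjusted p = 0.0908) and HMBA (-0.52, adjusted p = 0.086) were called with orientation as a term (4.88e-06 and 6.03e-06), and the first also with arrays scaled to equal spread (0.0268). The term also called the ratios of DMSO day 6 (-0.56, adjusted p = 0.441 without it and 0.00156 with it), HMBA day 2 (0.41, 0.762 and 0.0221) and HMBA day 4 (-0.48, 0.517 and 0.00491). It likewise called the change from day 2 to day 6 of HMBA (-1.90, 0.103 and 8.77e-07), RA minus HMBA (-0.88, 0.166 and 5.06e-06) and DMSO minus HMBA (1.07, 0.12 and 1e-06). In all 9 pairs the array of the first orientation had the higher ratio for this probe.

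**Figure D4:**
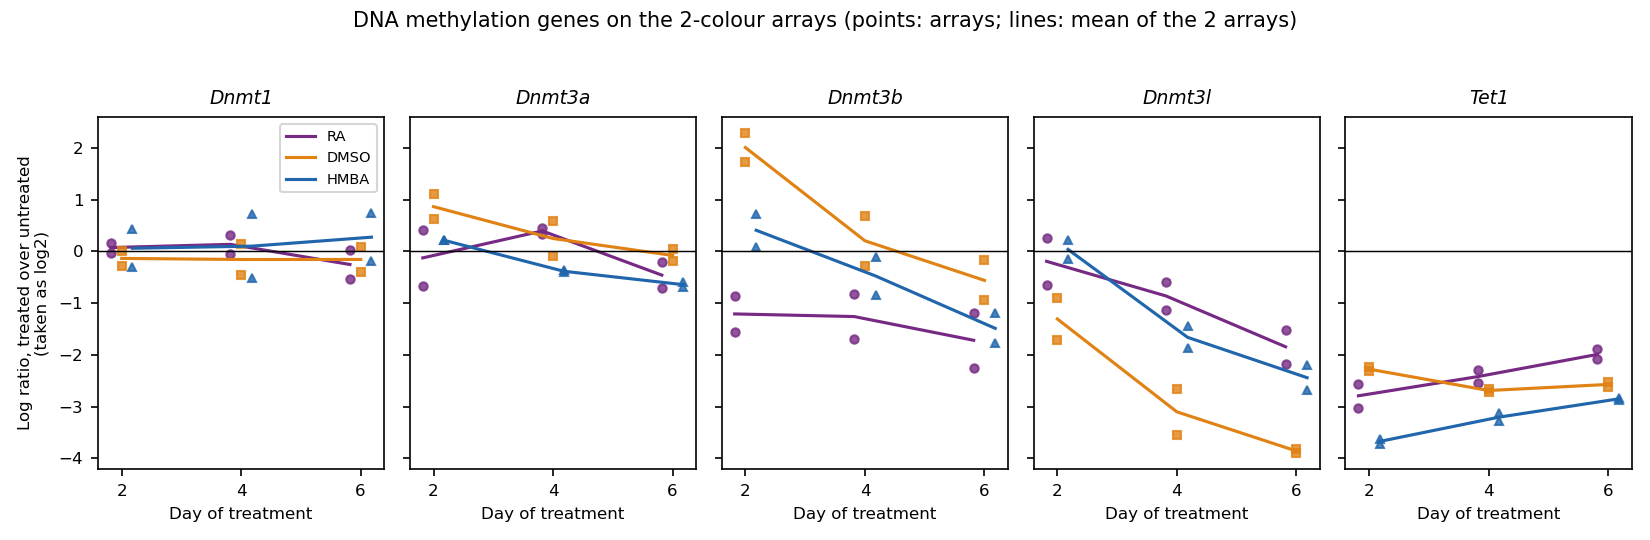
Log ratio of treated over untreated cells, taken as log2 (vertical axis), on days 2, 4 and 6 for the 5 genes with a probe, under RA, DMSO and HMBA; points are the 2 arrays of a day and lines join their means. Dnmt3b stands at 2.01 on day 2 of DMSO and at -1.21 on day 2 of RA, and Dnmt3l reaches -3.86 on day 6 of DMSO.

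Dnmt3a was called only with dye orientation as a term or with scaled arrays, and Dnmt1 was not called. Dnmt3a had ratios of 0.62 and 1.11 on day 2 of DMSO, -0.08 and 0.58 on day 4 and -0.19 and 0.04 on day 6. With HMBA they were 0.21 and 0.21, then -0.36 and -0.41, then -0.59 and -0.69, and with RA they ran from -0.72 to 0.45. None of its 9 ratios by day was called (adjusted p = 0.115 or more), but with orientation as a term the day 2 ratio of DMSO (0.86, adjusted p = 0.00221) and the day 6 ratios of HMBA (-0.64, 0.0065) and RA (-0.46, 0.0391) were. Scaling the arrays to equal spread also called the first of these (1.04, adjusted p = 0.02). With the term Dnmt3a was also called over the days of DMSO (0.34, adjusted p = 0.122 without it and 0.00905 with it) and HMBA (-0.27, 0.194 and 0.0291), in opposite directions. From day 2 to day 6 it then fell with DMSO (-0.94, 0.347 and 0.0171) and HMBA (-0.86, 0.417 and 0.0294). RA minus DMSO (-0.41, 0.346 and 0.0419) and DMSO minus HMBA (0.62, 0.22 and 0.00768) were called in the same fit. Only 1 probe reads Dnmt3a here, and which of the discordant Affymetrix probe sets it resembles is not known. The 2 Dnmt1 probes had means over the days between -0.17 and 0.14 for the 3 treatments, and neither was called with or without orientation as a term, over the days or on any day. The 95% intervals of the first were -0.41 to 0.37 with RA, -0.54 to 0.24 with DMSO and -0.25 to 0.53 with HMBA.

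By day, 1, 2 and 3 of the 5 genes were called with RA on days 2, 4 and 6, where 6.23%, 9.26% and 14.5% of probes were. With DMSO 3, 2 and 2 were called against 1.97%, 6.72% and 10.2%, and with HMBA 1, 2 and 3 against 4.98%, 12.8% and 12.3%. Between RA and HMBA 1 gene was called, with 3.28% of probes, and between DMSO and HMBA 2, with 1.45%. With orientation as a term the counts by day were 2, 3 and 4 with RA (22.6%, 29.4% and 40.3% of probes), 4, 2 and 3 with DMSO (10.3%, 25.6% and 31.1%) and 2, 3 and 4 with HMBA (21.3%, 33.2% and 32.9%). From day 2 to day 6 they were then 2, 3 and 4 (10.6%, 9.89% and 10%). Between inducers they were 3 for RA and DMSO, 3 for RA and HMBA and 4 for DMSO and HMBA (22.7%, 16.5% and 9.67%). Genes that tracked a member over the 18 arrays by Pearson r, a description over arrays that share a reference, were G3bp2 (0.929), Slpi (0.922) and Zic5 (0.921) for Dnmt3b and Hsd11b1 (0.943), Mcam (0.903) and Rbmxl2 (0.865) for Dnmt3l. For Tet1 the closest was Lage3 at 0.748, for Dnmt1 Cnih1 at 0.931 and for Dnmt3a Set at 0.902.

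Over all 12034 genes of the ratio arrays 17% rose with RA, 10.7% with DMSO and 15.5% with HMBA, and 10.5%, 8.6% and 12.8% fell. Among the other methylation genes, Morc1, Dppa3 and Zfp57, which guards methylation at imprinted loci, fell and Cxxc5, which binds unmethylated CpG and is known to lower Tet2, rose with each inducer. In the order RA, DMSO and HMBA, the differences were -1.93, -3.35 and -3.25 for Morc1 and -1.48, -2.01 and -1.88 for Dppa3. Those of Zfp57 were -0.87, -1.90 and -1.81, and those of Cxxc5 0.58, 0.95 and 0.61. Under Pou5f1 RNAi Cxxc5 had fallen (-0.88, adjusted p = 9.72e-08), and under Nanog RNAi it differed by -0.25 (adjusted p = 0.0544). Hells fell with HMBA (-1.11) and was not called with RA (-0.99). Of 13 partners measured 1 rose and 4 fell with each treatment, and 8 fell with each when orientation was a term. Of 12 germ line genes none rose, and 4 fell with RA, 6 with DMSO and 6 with HMBA (6, 6 and 8 with the term, when 2 rose with RA). In the same order Hormad1 (-2.32, -3.04 and -3.20) and Sycp3 (-2.44, -0.91 and -1.83) fell, as did Tex19.1 (-0.63, -2.57 and -1.67), which rose under both knockdowns. Dazl fell with DMSO (-2.02) and HMBA (-1.52) and was not called with RA (0.59). Of 4 methyl-CpG readers 2 rose with RA and 1 with HMBA, Mbd2 by 0.71 and 0.79, and with DMSO Mbd2 was not called (0.19). Shmt1 fell (-1.23, -1.36 and -1.48) and Gadd45b rose (0.61, 0.92 and 1.37). Of 23 replication genes 4 fell and 2 rose with RA, 1 and 1 with DMSO and 7 and 2 with HMBA. With the term 12, 8 and 12 of them fell, as did 2732, 2423 and 3065 of all 12034 genes. Cdc45 rose with each (0.85, 0.63 and 1.67). Of 6 fibroblast markers 4 rose with RA, 2 with DMSO and 3 with HMBA, by up to 3.35, 1.47 and 2.80. Of 8 trophectoderm markers 4 rose with RA, 1 with DMSO and 3 with HMBA, by up to 3.01, 1.36 and 3.53. Of 6 primitive endoderm markers 2 rose with RA and 1 with HMBA. In the order RA, DMSO and HMBA, 2, 1 and 2 of 7 neural markers rose and 2, 1 and 1 fell. Of 4 mesoderm markers 1 rose with each, and 1 fell with RA and 1 with HMBA. The mesoderm and trophectoderm lists share Eomes and Hand1, so their counts are not separate. With HMBA the lowest value was -0.69 in both lists. A fibroblast marker fell with DMSO, a trophectoderm marker with DMSO and another call with HMBA, and a primitive endoderm marker with RA. All 8 pluripotent markers fell with DMSO and HMBA and 7 of 8 with RA. The part of such cells in the ratios was not tested.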

How the data were processed

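Log2 levels of the RNAi arrays and log ratios of the 2-colour arrays were used as the authors deposited them. The levels were made by RMA, per the submitters' processing notes, with version not given. The ratios were already turned to sample over untreated for both dye orientations, per the labels, and how they were normalized is not given in any label or header. Treating them as log2 is an assumption. A microarray gives no counts, so the number of arrays limits the precision.

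Of 45101 probe sets, 64 controls were left out and 45037 tested, and 34945 of these carried 1 gene name, 932 several and 9160 none in the platform annotation. Of 21106 ratio probes, 16657 had a value in every group, and 13392 of these carried 1 name (12034 genes). Linear models (limma 3.58.1 under R 4.3.3, moderated by eBayes) had 1 coefficient per group, over all 14 or all 18 arrays, Benjamini-Hochberg adjustment over all features and a threshold of 0.05. The main probe of a gene was the brightest on the RNAi arrays and, on the ratio arrays, the one with most values, then the first by ID. All 8 genes are named, and the examples named from a list, up to 4, are those of largest change by main probe, except Gadd45a under Pou5f1 RNAi and Cxxc5, named after their values were seen.

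The replicate number of the ratio arrays marks the dye orientation, per the labels, and same-number arrays deviated together in all 72 pairs (r 0.45 to 0.91), so the fit with orientation as a term was set beside the main one. The 2 arrays of a group deviate from their mean by equal and opposite amounts. The 72 pairs are therefore not separate, since pairs of second arrays largely repeat pairs of first arrays. Whether the 2 arrays of a day hold the same RNA is not stated. Alternatives covered normalization, filters, the error model and leaving out each array. The fits were tested on simulated data. The genes and lists were chosen with earlier results of these data known. Upstream sequences came from RefSeq tables (GRCm38.p6) and figures from matplotlib 3.10.9 in Python 3.11.15.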

Additional observations from a re-analysis of the deposited data

Results flagged for a closer look

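Of 60 groups of arrays examined, each a probe set in 1 condition, 3 held an array set apart from the rest of its group, and chance alone sets apart about 1 group in 20. Dnmt3a read 6.51 on the fifth vector array in a probe set that was not called, against 6.18 on the nearest. Tet1 read 8.94 on the fourth Nanog RNAi array in 1 of its probe sets, against 9.39 on the nearest. Dnmt1 read 6.96 on the first vector array in its dimmest probe set, against 7.39 on the nearest.

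The effects of treatment differed between days or inducers, by a test of the difference itself, in 8 cases. From day 2 to day 6 with DMSO Dnmt3b changed by -2.57 and Dnmt3l by -2.55, and with HMBA Dnmt3l changed by -2.48. RA minus DMSO was -1.95 for Dnmt3b and 1.79 for Dnmt3l. RA minus HMBA was 0.84 for Tet1. DMSO minus HMBA was -1.40 for Dnmt3l and 0.73 for Tet1. Of all probes 1.09%, 0.955% and 1.48% were called from day 2 to day 6 with RA, DMSO and HMBA. Between inducers 6.19% were called for RA minus DMSO, 3.28% for RA minus HMBA and 1.45% for DMSO minus HMBA. Only Dnmt3b in RA minus DMSO and Tet1 in RA minus HMBA kept their call in every alternative run. The others lost it in at least 1.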

How the results depend on the processing

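No called difference of the 8 genes changed direction in any alternative run. Under Pou5f1 RNAi against vector, and against Nanog RNAi, 6 of 8 genes were called under each alternative of normalization, filter, error model, pair of groups and replicate block, and in each fit without 1 array, while counting any probe set gave 7. Under Nanog RNAi 3 to 4 genes were called when 1 array was left out, and 4 with the replicate number as a block (Dnmt3a at -0.27, adjusted p = 0.0446). The labels do not say whether that number pairs the RNAi arrays. Same-number pairs correlated above 0.1 in 5 of 13 cases (range -0.25 to 0.44), which does not decide it. With the dye orientation as a replicate block the genes called became 4 for DMSO and 4 for HMBA over the days (from 2 and 2), 2 for RA from day 2 to 6 (from 0), 4 for HMBA from day 2 to 6 (from 1), 3 for RA minus HMBA (from 1) and 4 for DMSO minus HMBA (from 2). Scaling the ratio arrays to equal spread left 1 for DMSO and 0 for HMBA from day 2 to 6, and 0 for DMSO minus HMBA. Counting the spread between days as error left 1 for RA minus DMSO and 0 for DMSO minus HMBA. The cause of these changes was not tested. Leaving out each array in turn gave 5 to 6 calls by day for RA, 5 to 7 for DMSO and 5 to 6 for HMBA, and from day 2 to 6 it gave 0 to 1 for RA, 0 to 1 for DMSO and 0 for HMBA; the means over days and the differences between inducers kept their counts. With 2 arrays per treatment and day, leaving out 1 array ended some calls by day of Dnmt3b and Dnmt3l and none of Tet1, and 1 Tet1 probe set below the median level of its array can show little.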
